A study of Mus musculus with 87 samples.

Results

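The 10 genes described here encode proteins that cut other proteins into peptides and place the peptides on MHC class I. They are the peptide transporter genes Tap1 and Tap2, the loading genes Tapbp and Tapbpl, the trimming peptidase gene Erap1, the immunoproteasome genes Psmb8, Psmb9 and Psmb10, and the proteasome activator genes Psme1 and Psme2. They were chosen by symbol, and each had 1 row among the 48526 genes counted in sorted bulk nuclei and 1 row among the 48531 genes counted in single nuclei.

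Proteasomes cut cytosolic proteins into peptides. In cells that receive interferon gamma (IFN-γ), the catalytic subunits PSMB8, PSMB9 and PSMB10 can take the places of the constitutive subunits PSMB5, PSMB6 and PSMB7 in newly built particles, and the activator made of PSME1 and PSME2 can bind the ends of the barrel. The TAP1 and TAP2 proteins form the pump that carries peptides into the endoplasmic reticulum, where ERAP1 shortens them, tapasin (from Tapbp) tethers MHC class I to the pump and TAPBPR (from Tapbpl) edits the bound peptides. In the healthy brain, neurons hold little MHC class I.

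The mice were wildtype C57BL/6J adults of both sexes, 6 to 12 months old, that received 40 ng of recombinant mouse IFN-γ in 400 nL of saline, or saline alone, by stereotaxic injection into the ventral midbrain. Sorted bulk nuclei were taken at 6, 24, 48 and 72 h and separated by NeuN, a nuclear protein of most neurons, into a neuronal (NeuN+) and a mainly glial (NeuN-) fraction. The 42 wells of a fraction held, for each time, 6 of IFN-γ and 4 of saline, except 24 h with 6 of saline. Single nuclei were taken at 48 h from 1 saline mouse and 2 IFN-γ mice after enrichment for NeuN+ nuclei. The labels call all 84 wells NeuN+, and the fraction used here comes from the well list published with the study. The 4 to 6 wells of a group came from 2 to 3 mice, but the sources do not tie wells to mice. The tests take wells as the replicates, so p-values measure the spread between wells, part of which may be technical, and wells of 1 mouse are not independent.

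Counts are unique molecular identifiers (UMIs), and levels are CPM, the count divided by the well's total UMIs and multiplied by 1000000. NeuN- wells held 20962 to 301445 UMIs and NeuN+ wells 277113 to 1684374, so that 1 count in the median NeuN- well was worth 9.07 CPM and in the median NeuN+ well 0.940 CPM. The summed neuronal markers (Rbfox3, Snap25, Syt1 and Meg3) were at 3749 to 7881 CPM in NeuN+ wells and at 175 to 1670 CPM in NeuN- wells, and the 6 oligodendrocyte markers were at 157 to 700.1 and 2347 to 8692 CPM, respectively. In NeuN- wells, marker levels moved with treatment. The oligodendrocyte sum was 3816 to 4872 CPM in IFN-γ wells and 6921 to 7973 CPM in saline wells at 6 h, and 2347 to 2944 against 7044 to 8623 CPM at 24 h, with 5 and 6 of 6 markers lower in the mean of IFN-γ wells. The sum of 7 microglial markers was 47.7 to 164 against 420.0 to 548 CPM at 6 h (7 of 7 lower), and the sum of 6 astrocyte markers 1705 to 2267 against 557 to 1207 CPM at 24 h (6 of 6 higher). At 48 h in NeuN- wells the oligodendrocyte sum was 6443 to 7774 against 7786 to 8692 CPM (5 of 6 lower). The microglial sum was 248 to 376 against 442 to 623 CPM (6 of 7 lower). The astrocyte sum was 1022 to 1317 against 461 to 792 CPM (5 of 6 higher). At 72 h the microglial sum was 462 to 558 against 363 to 454 CPM (7 of 7 higher). The astrocyte sum was 887 to 1125 against 1136 to 1225 CPM (5 of 6 lower), and the oligodendrocyte groups overlapped. In NeuN+ wells the oligodendrocyte sum was 157 to 209 against 288 to 403 CPM at 6 h and 600.0 to 700.1 against 344 to 418 CPM at 72 h, the astrocyte sum 279.8 to 307 against 100.3 to 225 CPM at 24 h (6 of 6 markers higher) and 211 to 247 against 135 to 197 CPM at 72 h (6 of 6 higher). At 48 h the NeuN+ astrocyte sum was 125.0 to 181.7 against 83.6 to 123.7 CPM (5 of 6 higher). The sum of 3 GABA neuron markers was 107 to 161 against 206 to 323 CPM at 24 h in NeuN+ wells (3 of 3 lower), and that of 5 dopamine neuron markers 275 to 376 against 177 to 266 CPM at 6 h (4 of 5 higher) and 295 to 417 against 92.1 to 169 CPM at 72 h (5 of 5 higher). That of 3 VGLUT2 neuron markers in NeuN+ wells was 1536 to 1684.5 against 1841 to 2045 CPM at 6 h (3 of 3 lower). At 72 h it was 1418 to 1536 against 2038 to 2176 CPM (3 of 3 lower), and at 24 and 48 h the groups overlapped. The T cell markers Cd3e, Cd3g and Trbc2 summed to 0 to 19.3 CPM over all wells, with a median of 0 in both fractions. The part of these shifts in the results below was not tested, and in bulk wells fewer cells of a type and less RNA per cell cannot be told apart.

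Psmb9, Tap1, Psmb8 and Tap2 lie side by side in the MHC region of chromosome 17 (GRCm38, positions from Gencode vM21). They fill 34.3 kb at chr17:34181987-34216321, and Tapbp lies at chr17:33915899-33929292. Psme1 (chr14:55578123-55581529) and Psme2 (chr14:55587441-55591113) are 5911 bases apart on opposite strands. Erap1 is at chr13:74639568-74693201, Psmb10 at chr8:105935735-105938444 and Tapbpl at chr6:125223933-125231860. All 10 are protein coding. Whether the counting used strand is not given in the sources used here, so counts in overlapping stretches cannot be told apart. Psmb9 and Tap1 overlap by 212 bases on opposite strands, Tapbpl lies wholly within Vamp1 on the opposite strand, Tapbp shares 3422 bases with Zbtb22 on the same strand, and Psmb10 is covered by the antisense gene Gm16156.

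Promoter windows of 250 bases before to 50 bases after the start (RefSeq, GRCm38.p6) were at hand for 8 of the 10 genes, all but Tap2 and Tapbpl. The windows of Erap1 and Psme1 are shown because each held a motif of interferon regulatory factors, and that of Tap1 because it is also most of the Psmb9 promoter. Capitals mark the match, and the Tap1 window holds none. Erap1 and Psme1 held GAAANNGAAA, the core to which interferon regulatory factors bind, read here from the other strand.
Erap1 (chr13:74639603-74639902, + strand): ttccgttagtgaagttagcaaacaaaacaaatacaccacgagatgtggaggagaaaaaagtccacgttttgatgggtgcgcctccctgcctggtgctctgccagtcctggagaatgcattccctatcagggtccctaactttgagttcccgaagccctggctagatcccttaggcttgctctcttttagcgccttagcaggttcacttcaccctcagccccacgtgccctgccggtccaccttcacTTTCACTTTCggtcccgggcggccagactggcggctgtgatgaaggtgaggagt
Psme1 (chr14:55578244-55578543, + strand): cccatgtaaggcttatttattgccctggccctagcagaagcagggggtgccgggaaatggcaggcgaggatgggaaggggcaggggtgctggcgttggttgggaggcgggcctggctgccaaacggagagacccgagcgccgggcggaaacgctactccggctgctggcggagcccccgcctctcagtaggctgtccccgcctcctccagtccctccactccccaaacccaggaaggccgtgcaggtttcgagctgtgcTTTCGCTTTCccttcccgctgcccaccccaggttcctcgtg
Tap1 (chr17:34187306-34187605, + strand): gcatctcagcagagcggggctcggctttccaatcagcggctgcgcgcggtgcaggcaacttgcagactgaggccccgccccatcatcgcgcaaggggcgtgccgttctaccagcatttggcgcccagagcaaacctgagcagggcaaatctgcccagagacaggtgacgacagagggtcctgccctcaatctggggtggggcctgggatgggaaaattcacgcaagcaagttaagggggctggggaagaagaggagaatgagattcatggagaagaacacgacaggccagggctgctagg
Both strands were searched. Of 32851 RefSeq promoter windows of the same length, 3.44% held GAAANNGAAA. The Tap1 window shares 275 bases with the Psmb9 window, which runs the other way. Neither held GAAANNGAAA, nor did those of Tapbp, Psmb8, Psmb10 and Psme2. A match is a description of letters only.

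Wells of IFN-γ and saline were compared in each fraction at each time by edgeR's quasi-likelihood test, and a gene was called at a log2 fold change beyond 1 with an adjusted p below 0.01 over all genes tested. The low-count filter of edgeR kept 6 of the 10 genes in NeuN- wells at 6 h and none of them at 24, 48 and 72 h. A gene can pass that filter through the IFN-γ wells alone, so each count is given also for the fit of all genes with at least 1 count, in which all 10 were tested. Where 6 wells are described, the 3 values are the lowest, the median and the highest.

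In glial nuclei the peptide transporter genes rose within 6 h. Tap1, one of the 2 subunits of the pump, was at 0, 0, 0 and 19.99 CPM in the 4 saline NeuN- wells and at 121, 140.3 and 286 CPM in the 6 IFN-γ wells at 6 h. Every IFN-γ well lay above every saline well, and the highest one was the shallowest of all wells, with 20962 UMIs. The log2 fold change was 4.68 ± 0.56 (adjusted p = 1.98e-08). With 2 saline counts against 103, the ratio of pooled levels was 32.4 (95% interval 8.75 to 271), an exact interval that, like all intervals here, covers counting error only. At 24 h Tap1 was at 0, 0 and 11.03 CPM in saline and at 113, 132 and 176 CPM in IFN-γ wells, again with no overlap. It rose by 5.62 ± 0.59 (adjusted p = 8.32e-19) in the fit of all genes with a count. The groups stayed apart later, with 0, 9.83, 10.4 and 12.5 CPM against 22.5, 51.7 and 66.9 CPM at 48 h and 0, 0, 0 and 13.2 CPM against 36.5, 47.95 and 54.8 CPM at 72 h. Tap1 passed the test at 72 h (3.32 ± 0.73, adjusted p = 0.00184) but not at 48 h (2.42 ± 0.64, adjusted p = 0.0234), when 3 of 4 saline wells held counts.

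Neuronal nuclei showed the same order of groups at lower levels. Tap1 was at 1.26, 2.15, 2.34 and 7.22 CPM in saline NeuN+ wells and at 16.6, 24.03 and 32.6 CPM in IFN-γ wells at 6 h. These did not overlap, and the log2 fold change was 3.22 ± 0.39 (adjusted p = 4.92e-07). At 24 h the 6 saline wells were at 0, 0.297 and 1.80 CPM and the IFN-γ wells at 27.3, 33.7 and 40.2 CPM. That difference, 5.46 ± 0.35 (adjusted p = 7.32e-12), was the largest of the 5 members tested there after filtering. At 48 h all 4 saline wells were at 0 and the IFN-γ wells at 4.39, 7.74 and 9.02 CPM, at least 9.31-fold higher on a floor of 3 counts over the saline wells (adjusted p = 5.85e-06 over all genes with a count). At 72 h the wells still did not overlap, with 0, 0, 0.794 and 0.967 CPM against 1.91, 4.15 and 6.14 CPM, but the test missed the limit (2.75 ± 0.80, adjusted p = 0.0267).

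Tap2, the partner subunit, rose at 6 and 24 h in both fractions. In NeuN- wells at 6 h it was at 0, 0, 7.25 and 9.55 CPM with saline and at 0, 125 and 183 CPM with IFN-γ. The shallowest IFN-γ well held no Tap2 count and overlapped saline, the other 5 lay above all saline wells, and the log2 fold change was 4.55 ± 0.62 (adjusted p = 2.92e-07). At 24 h the levels were 0, 0 and 14.8 CPM and 73.6, 88.3 and 153 CPM without overlap (5.15 ± 0.64, adjusted p = 2.57e-13, all genes with a count). In NeuN+ wells Tap2 was at 1.26, 2.34, 3.22 and 3.61 CPM against 11.2, 13.97 and 15.8 CPM at 6 h (2.37 ± 0.40, adjusted p = 0.000122). The NeuN+ wells at 24 h were at 1.02, 1.43 and 2.92 CPM with saline and 7.38, 12.7 and 14.5 CPM with IFN-γ, a difference of 2.77 ± 0.41 (adjusted p = 1.79e-09) when all genes with a count were fitted. By 48 and 72 h IFN-γ wells overlapped saline wells in both fractions, and Tap2 was not called, with log2 fold changes of 0.32 to 2.46 (adjusted p = 0.576 to 0.888).

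Of the 2 loading genes, Tapbp rose and Tapbpl did not pass the test in any of the 8 comparisons. Tapbp, which encodes tapasin, was at 0, 8.56, 9.55 and 14.5 CPM in saline and 22.6, 113 and 157 CPM in IFN-γ NeuN- wells at 6 h. Its lowest IFN-γ well was still above all saline wells, and the log2 fold change was 3.06 ± 0.65 (adjusted p = 0.000294). At 24 h the levels were 0, 0 and 14.8 CPM and 38.4, 44.96 and 88.3 CPM (3.53 ± 0.69, adjusted p = 1.65e-05, all genes with a count). The NeuN+ wells were at 0, 2.15, 2.34 and 2.52 CPM against 23.3, 28.04 and 32.4 CPM at 6 h, with every IFN-γ well above every saline well (3.57 ± 0.37, adjusted p = 1.66e-08). They were at 0.973, 3.89 and 7.12 CPM against 23.4, 29.1 and 34.6 CPM at 24 h (2.81 ± 0.25, adjusted p = 4.96e-09). At 48 and 72 h the NeuN+ groups overlapped, at 1.54 to 6.14 CPM against 2.70 to 8.79 CPM and 1.93 to 9.19 CPM against 1.91 to 8.84 CPM, with log2 fold changes of 0.14 ± 0.47 and 0.17 ± 0.49 (adjusted p = 0.928 and 0.895). The NeuN- values at those times were 1.60 ± 0.98 (adjusted p = 0.647) and 1.34 ± 0.87 (adjusted p = 0.642).

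Tapbpl, the related peptide editor, gave only 86 counts over all 84 wells, the fewest of the 10 genes. In each NeuN- group 2 to 5 wells were at 0, and at 6 h IFN-γ wells reached 8.71 CPM and saline wells 9.55 CPM. In NeuN+ wells Tapbpl was at 0, 1.09 and 2.37 CPM with saline and 0, 0.959 and 7.38 CPM with IFN-γ at 24 h, and these groups overlapped. Its log2 fold changes in NeuN+ wells were 1.54 ± 0.93, 0.50 ± 0.69, 0.55 ± 0.79 and 1.80 ± 0.92 from 6 to 72 h (adjusted p = 0.517, 0.754, 0.821 and 0.41), so that a change of this size was not detectable at this depth. In NeuN- wells they were -0.04 ± 1.16, 1.17 ± 1.097, -1.02 ± 1.24 and 1.20 ± 1.22 (adjusted p = 0.988, 0.57, 0.755 and 0.69), the last against saline wells that were all at 0.

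Erap1 had the most counts of the 10 genes (1911) and was present in most saline wells. This peptidase was at 10.00, 17.1, 29.01 and 38.2 CPM in saline and 139, 175 and 334 CPM in IFN-γ NeuN- wells at 6 h, with no overlap (2.77 ± 0.35, adjusted p = 4.91e-08). At 24 h NeuN- wells were at 0, 12.9 and 29.3 CPM and 60.3, 138 and 147 CPM, again apart (3.46 ± 0.44, adjusted p = 7.15e-13, all genes with a count). At 48 h 1 IFN-γ well, at 9.56 CPM, lay below the saline wells, which ranged from 9.83 to 16.8 CPM, and the test missed the limit (2.00 ± 0.53, adjusted p = 0.0241). By 72 h the groups overlapped (0.87 ± 0.64, adjusted p = 0.643). In NeuN+ wells Erap1 was at 10.1, 17.6, 18.3 and 21.7 CPM with saline and 59.4, 68.7 and 85.4 CPM with IFN-γ at 6 h (2.09 ± 0.19, adjusted p = 1.08e-09), and at 8.99, 17.97 and 19.6 CPM and 62.7, 69.1 and 80.5 CPM at 24 h (2.18 ± 0.16, adjusted p = 6.24e-11). Neither of these pairs overlapped. Erap1 was the single member that passed the filter in NeuN+ wells at 48 and 72 h, where it was not called (0.53 ± 0.25, adjusted p = 0.391 and 0.48 ± 0.26, adjusted p = 0.311).

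**Figure D1:**
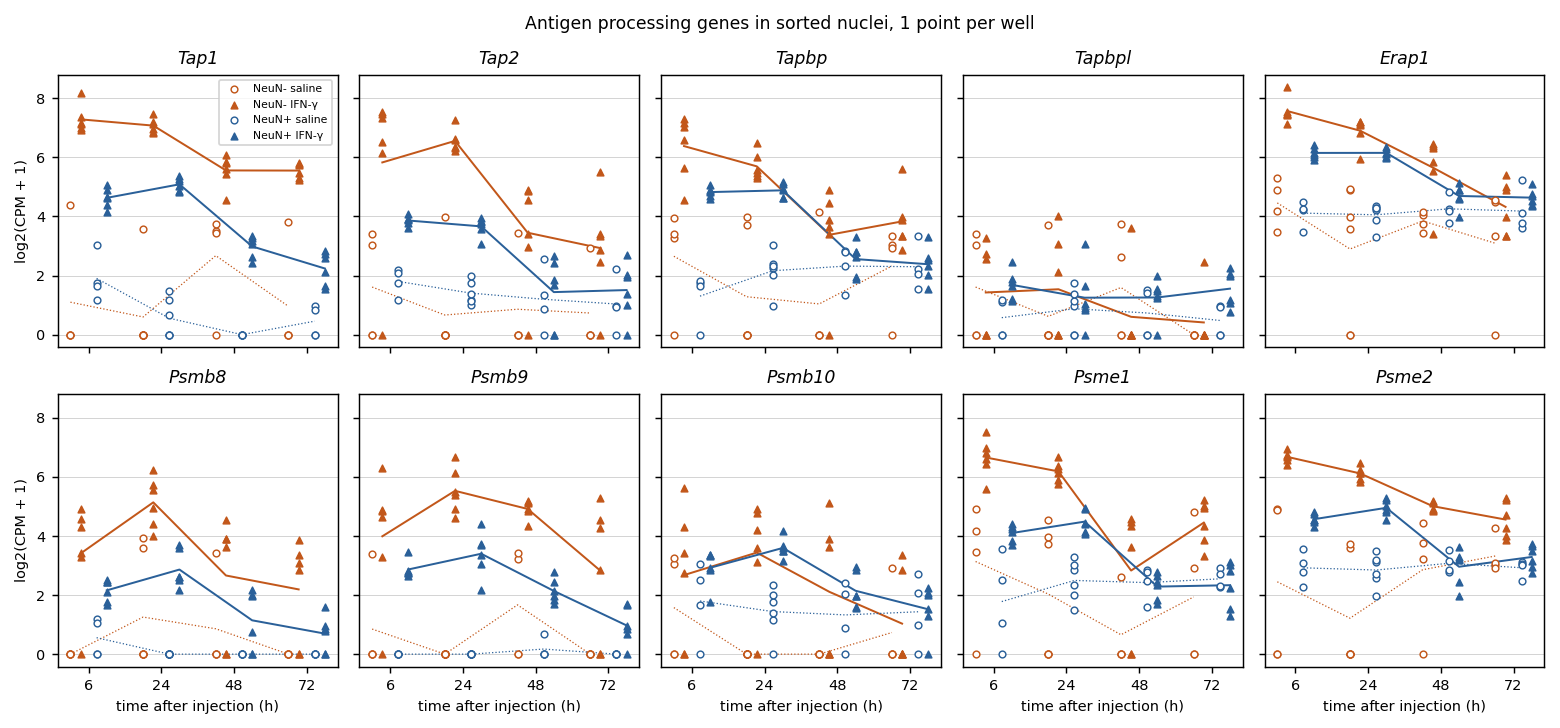
Level of each gene as log2(CPM + 1) (vertical axis) against time after injection in h (horizontal axis), with 1 point per well: open circles are saline, filled triangles IFN-γ, orange NeuN- and blue NeuN+, and lines join group means (dotted for saline). For Tap1, all IFN-γ wells are above all saline wells of the same fraction at all 4 times, and Tapbpl wells overlap throughout.

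Among the immunoproteasome genes, Psmb9 and Psmb8 rose from levels at or near 0, so that several of their rises are given as bounds. Psmb9 was at 0 in all 6 saline NeuN- wells at 24 h and at 23.2, 42.2 and 100.5 CPM in IFN-γ wells. On the floor of 3 counts it was at least 7.30-fold higher (adjusted p = 2.98e-06). In NeuN+ wells it was at 0 in all saline wells at both 6 and 24 h, and at 5.29, 5.83 and 10.05 CPM and 3.53, 10.5 and 20.3 CPM in IFN-γ wells. These were at least 5.98-fold higher and at least 25.4-fold higher (adjusted p = 7.11e-05 and 9.48e-16). At 48 h all IFN-γ wells of Psmb9 were above all saline wells in both fractions, at 0, 0, 8.42 and 9.83 CPM against 19.1, 31.4 and 35.03 CPM in NeuN- and 0, 0, 0 and 0.614 CPM against 2.23, 3.16 and 5.81 CPM in NeuN+ wells. Neither passed the test (2.56 ± 0.85, adjusted p = 0.196 and 3.22 ± 0.97, adjusted p = 0.096). At 6 h in NeuN- wells, where 1 of 4 saline wells held the gene, Psmb9 missed the limit (3.31 ± 0.93, adjusted p = 0.0111), and at 72 h, against saline wells all at 0, the adjusted p was 0.314 in NeuN- and 0.234 in NeuN+ wells.

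Psmb8 was called at 24 h in both fractions. It was at 0, 0 and 14.4 CPM in saline and 14.9, 37.9 and 73.6 CPM in IFN-γ NeuN- wells, which did not overlap (2.93 ± 0.77, adjusted p = 0.00426). With 2 saline counts, the ratio of pooled levels was 8.70 (95% interval 2.21 to 75.02). In NeuN+ wells at 24 h saline wells were all at 0 and IFN-γ wells at 3.53, 5.12 and 11.8 CPM, at least 16.6-fold higher (adjusted p = 2.74e-10). At 6 h it missed the limit, with 0, 14.1 and 29.1 CPM in IFN-γ NeuN- wells against 4 saline wells at 0 (at least 2.94-fold higher, adjusted p = 0.0209) and 0, 0, 1.07 and 1.26 CPM against 2.15, 3.87 and 4.74 CPM in NeuN+ wells (2.10 ± 0.87, adjusted p = 0.226). Later, NeuN- wells gave adjusted p = 0.647 at 48 h and 0.607 at 72 h, and NeuN+ wells 0.211 and 0.41.

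Psmb10, the third inducible subunit, was called only in NeuN+ wells at 24 h. There it was at 0, 1.99 and 4.09 CPM in saline and 7.93, 10.7 and 17.2 CPM in IFN-γ wells without overlap (2.33 ± 0.40, adjusted p = 9.02e-07). At 24 h in NeuN- wells saline wells were all at 0 and IFN-γ wells at 0, 14.3 and 29.4 CPM, at least 2.99-fold higher, with an adjusted p of 0.0132. In NeuN+ wells at 6 h the groups overlapped, at 0, 2.15, 4.69 and 7.22 CPM and 2.37, 7.72 and 9.33 CPM (1.34 ± 0.53, adjusted p = 0.188), and at 48 and 72 h the adjusted p was 0.69 and 0.934. In NeuN- wells it was 0.468 at 6 h, 0.574 at 48 h and 0.946 at 72 h.

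The genes of the proteasome activator, Psme1 and Psme2, rose at 6 and 24 h in both fractions. Psme1 was at 0, 10.00, 17.1 and 29.01 CPM in saline and 47.7, 104 and 183 CPM in IFN-γ NeuN- wells at 6 h (2.76 ± 0.47, adjusted p = 1.16e-05). At 24 h it was at 0, 6.06 and 22.1 CPM and 53.7, 72.9 and 100.5 CPM (3.17 ± 0.55, adjusted p = 6.21e-07, all genes with a count). In NeuN+ wells it was at 0, 1.07, 4.69 and 10.8 CPM and 11.8, 17.3 and 20.1 CPM at 6 h (2.45 ± 0.46, adjusted p = 0.000459) and at 1.80, 5.14 and 8.76 CPM and 15.9, 20.6 and 29.7 CPM at 24 h (2.22 ± 0.30, adjusted p = 8.26e-06). In these 4 comparisons the groups did not overlap, although without saline well 4 of 6 h the adjusted p in NeuN+ wells rose to 0.0105. At 48 and 72 h NeuN+ levels overlapped (-0.45 ± 0.50, adjusted p = 0.721 and -0.15 ± 0.46, adjusted p = 0.906), and the NeuN- differences were 2.06 ± 1.13 (adjusted p = 0.647) and 1.49 ± 0.75 (adjusted p = 0.642).

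Psme2, the second activator gene, was at 0, 0, 28.6 and 29.01 CPM in saline and 83.5, 103 and 121 CPM in IFN-γ NeuN- wells at 6 h (2.65 ± 0.47, adjusted p = 2.21e-05). The 24 h NeuN- levels were 0, 0 and 12.1 CPM and 55.7, 69.3 and 86.97 CPM (3.89 ± 0.64, adjusted p = 1.22e-07, all genes with a count). Its NeuN+ wells were at 3.79, 5.86, 7.52 and 10.8 CPM against 18.7, 22.3 and 27.3 CPM at 6 h (1.78 ± 0.30, adjusted p = 0.000124) and at 2.92, 6.67 and 10.2 CPM against 22.1, 29.7 and 37.9 CPM at 24 h (2.16 ± 0.22, adjusted p = 8.9e-08), and all 4 pairs of groups were apart. At 48 h in NeuN- wells the groups were also apart, at 0, 8.42, 12.5 and 20.7 CPM and 27.6, 31.4 and 35.03 CPM, without passing the test (1.27 ± 0.66, adjusted p = 0.647). The difference was 1.21 ± 0.71 (adjusted p = 0.642) at 72 h. In NeuN+ wells it was -0.06 ± 0.39 (adjusted p = 0.955) at 48 h and 0.43 ± 0.35 (adjusted p = 0.638) at 72 h.

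**Figure D2:**
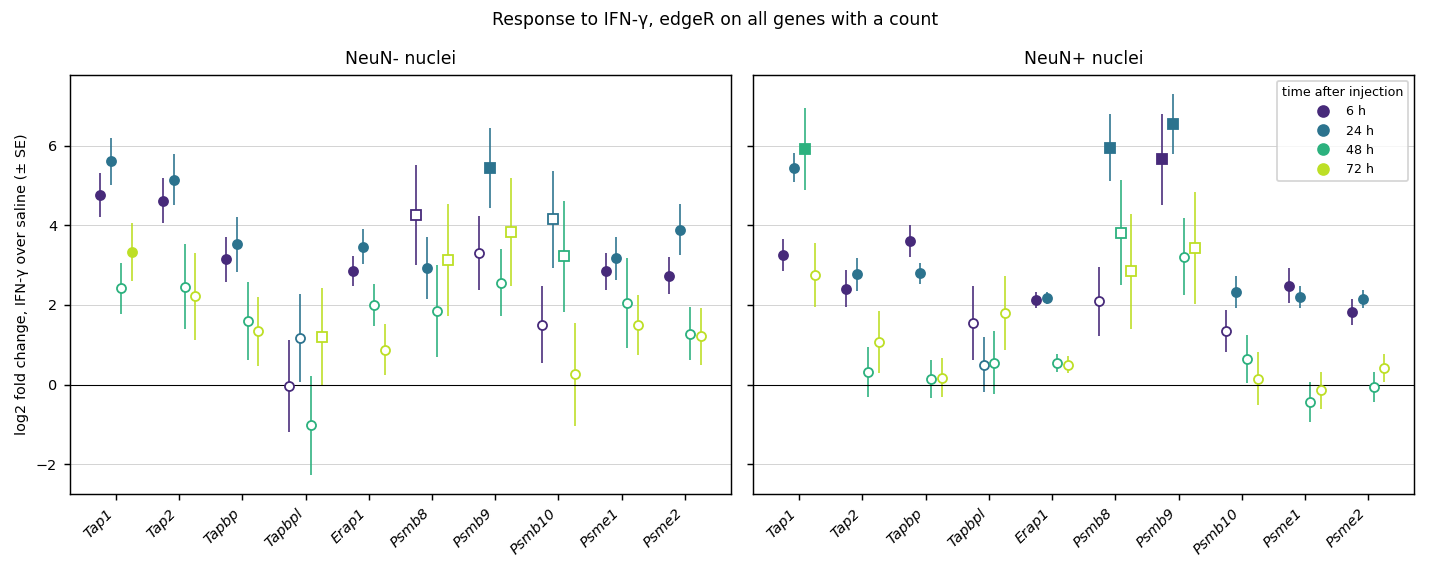
Log2 fold change of IFN-γ over saline with its standard error (vertical axis) for each gene (horizontal axis) in NeuN- (left) and NeuN+ nuclei (right), from the fit of all genes with a count; colors give the time, filled markers passed the test, and squares mark comparisons whose saline wells were all at 0, where the fitted value depends on the prior count. Filled markers are mostly those of 6 and 24 h, with Tap1 also filled at 72 h in NeuN- and at 48 h in NeuN+ nuclei.

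Counted over the 10 genes, calls were many at 6 and 24 h and few afterwards. In NeuN- wells at 6 h, 6 of the 6 genes that passed the filter were called, beside 7.86% of all genes tested, and in the fit of all genes with a count 6 of 10 beside 1.7%. At 24 h no member passed the filter (7.22% of all genes called), and 8 of 10 were called beside 2.24% when all were tested, the exceptions being Psmb10 and Tapbpl. At 48 h the counts were 0 of 0 (1.23%) and 0 of 10 (0.244%), although 5 of the 10 had an unadjusted p below 0.05, and DESeq2 also called 0. At 72 h they were 0 of 0 (0.754%) and 1 of 10 (0.203%), Tap1, which DESeq2 did not call. In NeuN+ wells 6 of 6 (1.08%) and 7 of 10 (0.571%) were called at 6 h, the 7 being the 6 that passed the filter and Psmb9. At 24 h 5 of 5 (1.47%) and 9 of 10 (0.95%) were called, all but Tapbpl. At 48 h the counts were 0 of 1 (0.15%) and 1 of 10 (0.142%), Tap1, and at 72 h 0 of 1 (0.351%) and 0 of 10 (0.182%), where 3 of the 10 had an unadjusted p below 0.05 and DESeq2 called 0. At 24 h Xist was at 30.1 to 74.9 CPM in IFN-γ and at 20.98 to 1177 CPM in saline NeuN+ wells, so that it was low in the former and spanned both levels in the latter. The part of sex in the 24 h results was not tested. No member was called lower in any of the 8 comparisons, under either fit. The median log2 fold change of the members at 24 h was 3.71 in NeuN- and 2.55 in NeuN+ wells, beside 0.17 and -0.03 over all genes tested. At 48 and 72 h it was 2.03 and 1.42 in NeuN- wells, beside 0.04 and 0.11 over all genes tested. In NeuN+ wells it was 0.54 and 0.79 at those times, beside 0.02 and 0.03. The few calls in NeuN- wells at 48 and 72 h thus do not show that the response had ended.

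Whether glia and neurons differed was examined first in the levels of IFN-γ wells. All 6 NeuN- wells were above all 6 NeuN+ wells for 4 of the 10 genes at 6 h (Tap1, Erap1, Psme1 and Psme2), beside 5.05% of all genes with a count, and for 7 at 24 h (Tap1, Tap2, Tapbp, Psmb8, Psmb9, Psme1 and Psme2), beside 5.56%. At 48 h it was 3 genes (Tap1, Psmb9 and Psme2; 5.5%) and at 72 h also 3 (Tap1, Psme1 and Psme2; 6.32%). Tap1 and Psme2 were apart at all 4 times. The mean of Tap1 was 6.70, 4.06, 6.82 and 11.6 times as high in NeuN- as in NeuN+ wells from 6 to 72 h. The ratio at 24 h was 8.08 for Tap2, 5.72 for Psmb8 and 4.76 for Psmb9, and it was 1.85 for Tapbp and 1.76 for Erap1, whose wells overlapped between the fractions. At 72 h the ratio was 0.918 for Erap1 and 0.349 for Tapbpl, which had 1 count in NeuN- wells, both with overlapping wells, and 1.17 for Psmb10. A NeuN- well is several times shallower than a NeuN+ well, and single counts move it more.

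The size of the response relative to saline was not called different between the fractions for any member. The interaction of fraction and treatment called 0 of 6 members tested at 6 h (2.53% of all genes called), 0 of 6 at 24 h (4.22%), 0 of 2 at 48 h (0.128%) and 0 of 3 at 72 h (0.347%). Unadjusted p values below 0.05 were seen for 1, 3, 2 and 0 of them, and DESeq2 called 0 at each time. In the fit of all genes with a count it called 0 of 10 at 6 h (0.465%), 24 h (1.27%), 48 h (0.0811%) and 72 h (0.155%), with 1, 4, 3 and 0 unadjusted p values below 0.05. Among the members that passed the filter, the largest difference was that of Tap2, whose response in NeuN+ wells less that in NeuN- wells was -2.49 ± 1.15 (adjusted p = 0.187) at 6 h and -2.84 ± 1.102 (adjusted p = 0.101) at 24 h on the log2 scale. Those of Psme2 and Erap1 at 24 h were -1.93 ± 0.84 (adjusted p = 0.143) and -1.32 ± 0.56 (adjusted p = 0.136). At 48 h the difference was -1.61 ± 0.64 (adjusted p = 0.28) for Erap1 and in the other direction, 2.49 ± 0.96 (adjusted p = 0.27), for Tap1, whose NeuN+ saline wells were all at 0.

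Over time, the response of neuronal nuclei fell for 4 genes between 24 and 72 h. The response at 72 h less that at 24 h in NeuN+ wells was -2.66 ± 0.55 (adjusted p = 0.00124) for Tapbp, -2.38 ± 0.59 (adjusted p = 0.00861) for Psme1, -1.76 ± 0.41 (adjusted p = 0.00435) for Psme2 and -1.72 ± 0.33 (adjusted p = 0.00035) for Erap1. These were 4 of the 8 members tested, beside 0.612% of all genes called lower at the later time. In the fit of all genes with a count 3 of 10 were called (0.294%), Tapbp, Psme1 and Erap1, and Psme2 missed the limit at -1.73 ± 0.45 (adjusted p = 0.0102). For all 4 genes, IFN-γ and saline NeuN+ wells overlapped from 48 h on. When single wells were left out, Erap1 was called in 42 of 42 fits, Tapbp in 41, Psme2 in 39 and Psme1 in 29, and without saline well 3 of 72 h the count of 4 fell to 1. In NeuN- wells 0 of 6 members were called (4.25%), and 0 of 10 in the fit of all genes with a count (0.713%), 2 of them with an unadjusted p below 0.05 in either fit. Erap1 came nearest, at -2.49 ± 0.90 (adjusted p = 0.0403), and Psme2 followed at -2.61 ± 1.05 (adjusted p = 0.0764). DESeq2 called 0 in NeuN- and 4 in NeuN+ wells for this contrast. The response at 24 h less that at 6 h was called for 0 of 6 members in NeuN- (6.15%) and 0 of 8 in NeuN+ wells (0.603%), with 0 and 1 unadjusted p values below 0.05 and 0 and 0 calls by DESeq2. In the fit of all genes with a count it was called for 0 of 10 in NeuN- (0.822%) and 0 of 10 in NeuN+ wells (0.375%), with 0 and 2 unadjusted p values below 0.05. The difference for Tap1 in NeuN+ wells was 2.24 ± 0.77 (adjusted p = 0.115). Each time came from different mice, so that time and mouse cannot be told apart. Xist, which female cells transcribe from the inactive X, was at 938 to 1266 CPM in IFN-γ NeuN+ wells at 6 h, 30.1 to 74.9 CPM at 24 h, 878 to 1116 CPM at 48 h and 23.2 to 61.2 CPM at 72 h. In saline NeuN+ wells it was at 984 to 1149, 20.98 to 1177, 780.4 to 1108 and 23.9 to 36.99 CPM at those times. The part of sex in these contrasts was not tested.

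Without IFN-γ the members were too low for the filter in the comparison of fractions over all 36 saline wells: 0 of 10 were tested, beside 27.6% of all genes called higher in NeuN- wells. In the fit of all genes with a count 1 of 10, Tap1, was called higher in NeuN- wells, beside 8.59%, with a log2 ratio of NeuN+ to NeuN- of -1.83 ± 0.59 (adjusted p = 0.00824). Psmb8 and Psmb9 followed at -2.12 ± 0.81 (adjusted p = 0.0367) and -2.29 ± 0.80 (adjusted p = 0.0186) and were not called. Erap1, the member with the most saline counts, differed by 0.46 ± 0.27 (adjusted p = 0.207).

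The constitutive counterparts were not called. Psmb5, Psmb6 and Psmb7 encode the subunits whose places PSMB8, PSMB9 and PSMB10 take, and none of the 3 passed the test in any of the 8 comparisons in either fit. Psmb7, the best counted of them, was at 14.8 to 86.6 CPM in saline and 14.7 to 70.6 CPM in IFN-γ NeuN- wells at 24 h, and at 40.9 to 64.1 and 38.6 to 59.04 CPM in NeuN+ wells. Its log2 fold changes were 0.24 ± 0.40 and -0.12 ± 0.14 (adjusted p = 0.789 and 0.701), where Psmb10 gave 2.33 ± 0.40 in NeuN+ wells. Psmb6, beside Psmb9, had log2 fold changes of 0.85 ± 0.81 and 0.30 ± 0.37 (adjusted p = 0.57 and 0.716). Psmb5, beside Psmb8, was at 0 to 2.88 CPM in IFN-γ NeuN+ wells and 0 to 4.16 CPM in saline NeuN+ wells at 24 h. Pomp, which encodes the proteasome maturation factor, had 2.22 ± 0.87 (adjusted p = 0.146) in NeuN- wells at 6 h and 1.86 ± 0.70 (adjusted p = 0.0962) at 24 h, and 0.07 ± 0.25 (adjusted p = 0.929) in NeuN+ wells at 24 h.

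**Figure D3:**
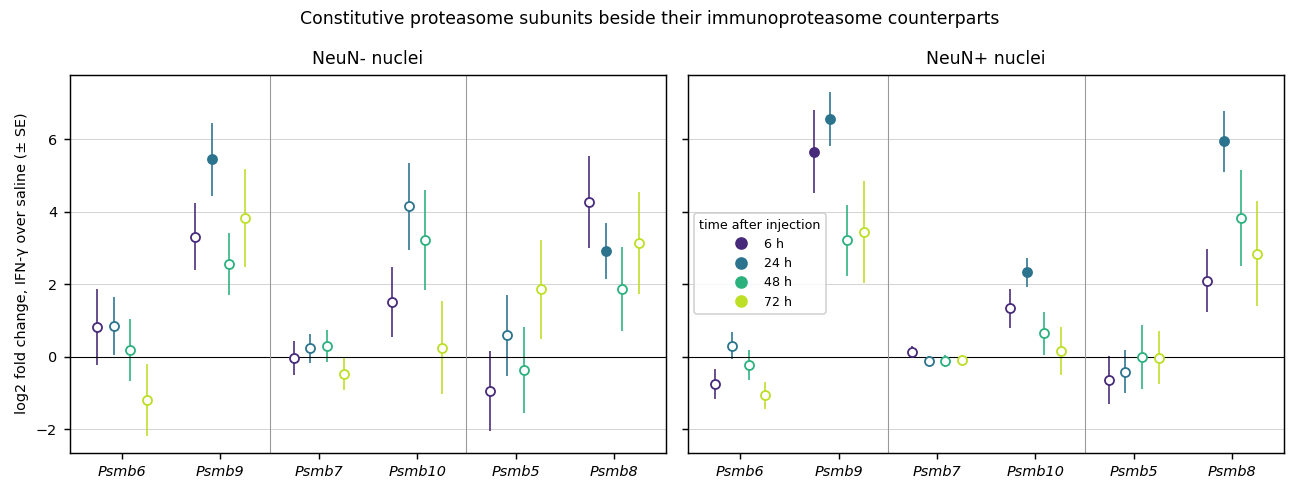
Log2 fold change of IFN-γ over saline with its standard error (vertical axis) for each constitutive catalytic subunit gene and, to its right, the inducible counterpart, in NeuN- (left) and NeuN+ nuclei (right), from the fit of all genes with a count; colors give the time and filled markers passed the test. Filled markers occur only for Psmb8, Psmb9 and Psmb10, and Psmb7 lies between -0.47 and 0.30.

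Around these genes, 28 other genes of antigen processing were followed. At 24 h in NeuN+ wells 22 of them were tested after filtering and 7 rose, beside 1.47% of all genes tested. In NeuN- wells 5 of 10 rose, beside 7.22%. In the fit of all genes with a count, 7 of 28 rose in NeuN+ (0.95%) and 9 of 28 in NeuN- wells (2.24%). No gene of the list was called lower in any of the 8 comparisons. Apart from Lap3, the genes that rose after filtering were the MHC class I chains and the regulators. B2m, the light chain, rose by 3.55 ± 0.35 (adjusted p = 1.75e-09) in NeuN- and 4.23 ± 0.20 (adjusted p = 1.86e-14) in NeuN+ wells at 24 h, and the heavy chain H2-K1 by 2.999 ± 0.39 (adjusted p = 2.84e-07) and 4.42 ± 0.26 (adjusted p = 1.13e-12). Nlrc5, the transactivator of MHC class I genes, rose by 4.19 ± 0.24 (adjusted p = 2.88e-14) and 6.80 ± 0.21 (adjusted p = 1.61e-18), and Irf1, a transcription factor of the IFN-γ response, passed the test in both fractions at 6 and 24 h. Lap3, a leucine aminopeptidase, passed the test after filtering at 6 h in NeuN- (1.44 ± 0.27, adjusted p = 4.34e-05) and at 24 h in NeuN+ wells (1.40 ± 0.24, adjusted p = 0.000269). Of the constitutive proteasome genes and regulators, the loading chaperones (Calr, Canx, Pdia3, Hspa5, Ganab and Uggt1) and the transport genes (Abcb9, Sec61a1 and Sec61b), 0 were called after filtering in the 8 comparisons, where 3 of 7, 6 of 6 and 2 of 3 of them were tested in NeuN+ wells at 24 h. When all genes with a count were tested, Hspa5 and Pdia3 rose in NeuN- wells at 24 h (1.43 ± 0.34, adjusted p = 0.00101 and 2.36 ± 0.39, adjusted p = 1.05e-07).

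The gene patterns were also compared over the 16 groups of wells (2 fractions, 2 treatments, 4 times) by Pearson's r of the group means of log2(CPM + 1) with those of Tap1, among 15315 genes that reached 5 CPM in a group. As a description, since the groups share fractions and depth, Tap1 was most like F830016B08Rik (r = 0.970), Rtp4 (0.966), Gbp2 (0.963), Tgtp2 (0.953) and Gm12250 (0.952), outside the lists. Of the members, Psmb9 ranked 7, Psmb8 17, Psme2 25, Tap2 28, Erap1 81, Tapbp 83, Psme1 129 and Psmb10 417, with r from 0.947 to 0.655. Tapbpl did not reach 5 CPM in any group mean and was not ranked.

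Single nuclei gave the levels by cell class at 48 h. The table held 4699 nuclei, 1016 from the saline mouse and 2574 and 1109 from IFN-γ mice 1 and 2, with medians of 14646 UMIs, 9405 UMIs and 11767 UMIs per nucleus. No barcode was shared between libraries. Nuclei were clustered without the 10 genes and the 28 pathway genes and named from marker lists, and the UMIs of a class were summed per mouse. A call in a class needed a log2 fold change beyond 3, an adjusted p below 0.01 and a ratio beyond 3 on the log2 scale in each IFN-γ mouse. With 1 saline mouse the spread comes from the 2 IFN-γ mice, and levels are given per mouse.

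Oligodendrocyte-like nuclei (191 saline, 744 and 306 IFN-γ) held no UMI of Tap1, Tap2, Psmb8 or Psmb9 in the saline mouse, which had 694527 UMIs in this class. A sum of 0 allows up to 4.32 CPM at 3 counts. Tap1 was at 59.2 CPM (160 UMIs, 95% interval 50.4 to 69.2) in IFN-γ mouse 1 and at 77.6 CPM (112 UMIs, 95% interval 63.9 to 93.3) in mouse 2, at least 13.7-fold and 17.96-fold higher. Tap2 was at 45.9 and 60.3 CPM, at least 10.6-fold and 13.95-fold higher. Psmb8 was at 43.3 CPM (117 UMIs, 95% interval 35.8 to 51.9) and 91.4 CPM (132 UMIs, 95% interval 76.5 to 108), so that the 2 mice differed beyond counting error, and Psmb9 at 51.1 and 59.6 CPM. These were at least 10.03-fold and 21.2-fold higher for Psmb8 and at least 11.8-fold and 13.8-fold higher for Psmb9. The 4 genes were called, 4 of 10 beside 0.578% of all genes tested (adjusted p = 3.67e-18, 4.61e-14, 1.13e-16 and 7.88e-15). Genes were tested if they held at least 10 UMIs over the saline and IFN-γ mice together. With no saline UMI, these 4 genes passed that limit through the IFN-γ mice alone.

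The other members in this class had 1 to 11 saline UMIs and were not called at this limit. Psmb10 went from 2 saline UMIs to 18.9 and 37.4 CPM, ratios of 6.56 (95% interval 1.72 to 55.6) and 12.99 (95% interval 3.43 to 110.0), and Tapbp from 3 UMIs to 29.6 and 46.4 CPM, ratios of 6.86 (95% interval 2.26 to 33.95) and 10.7 (95% interval 3.52 to 53.4). Psme2 had ratios of 6.26 (95% interval 2.06 to 31.05) and 7.06 (95% interval 2.26 to 35.5). With the limit set at 1, these 3 genes were called too (adjusted p = 0.000357, 9.61e-06 and 0.000703). Psme1 was at 12.96 CPM with saline and 25.2 and 49.2 CPM with IFN-γ (adjusted p = 0.0345), and Erap1 at 15.8 and 22.96 and 31.9 CPM (adjusted p = 0.492). Tapbpl, at 1 saline UMI, had ratios of 3.86 (95% interval 0.593 to 162) and 3.85 (95% interval 0.516 to 171). The saline oligodendrocyte-like nuclei were in clusters 6 and 1, while 551 of the IFN-γ ones were in cluster 0, which held no saline nucleus. In this class B2m, H2-K1, H2-D1, Nlrc5 and Irf1 were called among 27 pathway genes tested, and none of Psmb5, Psmb6 and Psmb7 (log2 fold changes -0.23, 0.28 and 0.17).

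In neuron-like nuclei none of the 10 genes was called. In VGLUT2 neuron-like nuclei (278, 823 and 290) Tap1 was at 0.1805 CPM (1 UMI) in the saline mouse and at 4.21 and 5.44 CPM in the IFN-γ mice, ratios of 23.3 (95% interval 4.01 to 938) and 30.1 (95% interval 5.04 to 1227). Psmb8 and Psmb9 had no saline UMI there and were at 4.44 and 7.14 CPM, and 3.37 and 4.59 CPM. That is at least 8.20-fold and 13.2-fold higher for Psmb8 and at least 6.22-fold and 8.48-fold higher for Psmb9. Called were 0 of 10 (0.0312% of all genes), 7 of them with an unadjusted p below 0.05, and the adjusted p was 0.0553 for Psmb8, 0.113 for Psmb9 and 0.119 for Tap1. The other 7 had ratios from 1.20 (Erap1) to 2.44 (Tapbpl) in mouse 1 and from 1.71 (Psme2) to 3.19 (Tap2) in mouse 2. In GABA neuron-like nuclei (294, 561 and 273) Tap1 was at 0.341 CPM with saline and 4.52 and 4.72 CPM with IFN-γ, ratios of 13.3 (95% interval 3.46 to 113) and 13.8 (95% interval 3.49 to 120.0). Psmb8 had no saline UMI there and was at 2.26 and 7.08 CPM, at least 4.42-fold and 13.8-fold higher. Called were 0 of 10 (0.0215%), 5 of them with an unadjusted p below 0.05. The other 8 had ratios from 0.914 (Psme2) to 5.73 (Psmb9) in mouse 1 and from 0.824 (Tapbpl) to 16.3 (Psmb9) in mouse 2. Psme2, the lowest ratio in mouse 1, was at 5.63, 5.14 and 5.06 CPM, with intervals that overlap.

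Dopamine neuron-like nuclei (175, 152 and 109) held Psmb8 at 0.500 CPM with saline (2 UMIs) and at 6.95 and 9.43 CPM with IFN-γ, ratios of 13.9 (95% interval 3.35 to 123) and 18.8 (95% interval 4.61 to 166). Tap1 was at 1.25, 3.29 and 4.94 CPM, with ratios of 2.63 (95% interval 0.792 to 9.99) and 3.95 (95% interval 1.26 to 14.5), the first with an interval that holds 1. Psme1 went from 3.75 CPM to 7.68 and 18.9 CPM. Called were 0 of 10 (0.0377%), 4 of them with an unadjusted p below 0.05. Psme2 lay on either side of saline, at 10.3 CPM with saline and 6.95 and 16.2 CPM with IFN-γ (adjusted p = 1). The other 4 had ratios from 1.06 (Tapbpl) to 1.36 (Tapbp) in mouse 1 and from 1.41 (Tapbp) to 3.20 (Tap2) in mouse 2. Psmb9 had no saline UMI and was at 2.19 and 3.14 CPM. Erap1 was at 19.01, 28.5 and 33.2 CPM in this class. Some neuron clusters came mostly from IFN-γ mouse 1 (203, 85 and 51 nuclei in clusters 7, 20 and 25, with 186, 80 and 51 from that mouse).

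Between classes within 1 mouse, oligodendrocyte-like nuclei held more Tap1, Tap2, Psmb8 and Psmb9 than VGLUT2 neuron-like nuclei. The median nucleus held 3446 and 4202 UMIs in the first class and 14476 and 17160 in the second. The ratio of Tap1 to its level in VGLUT2 neuron-like nuclei was 14.1 (95% interval 10.3 to 19.5) in IFN-γ mouse 1 and 14.3 (95% interval 9.55 to 21.8) in mouse 2. For Psmb9 it was 15.2 (95% interval 10.7 to 21.8) and 12.98 (95% interval 8.34 to 20.8), and for Tap2 9.52 (95% interval 6.98 to 13.1) and 8.05 (95% interval 5.54 to 11.9). For Psmb8 it was 9.76 (95% interval 7.07 to 13.6) and 12.8 (95% interval 8.99 to 18.6). It was smaller for Psmb10, at 2.49 (95% interval 1.74 to 3.53) and 3.24 (95% interval 2.22 to 4.69), and for Erap1, at 1.92 (95% interval 1.41 to 2.60) and 1.69 (95% interval 1.17 to 2.40). Over GABA neuron-like nuclei the Tap1 ratio was 13.1 (95% interval 9.33 to 18.7) and 16.4 (95% interval 10.8 to 25.8), and over dopamine neuron-like nuclei 18.01 (95% interval 9.25 to 40.1) and 15.7 (95% interval 8.45 to 32.4). Against dopamine neuron-like nuclei the Erap1 interval held 1 in both mice (0.805, 95% interval 0.567 to 1.14 and 0.959, 95% interval 0.649 to 1.40). Against astrocyte-like nuclei the Tap1 interval also held 1, at 1.42 (95% interval 0.940 to 2.22) and 1.81 (95% interval 0.946 to 3.87), as did that of Tap2. It lay above 1 for Psmb8, at 2.34 (95% interval 1.29 to 4.65) and 5.32 (95% interval 2.03 to 19.8). The same held for Psmb9, at 1.94 (95% interval 1.17 to 3.43) and 6.93 (95% interval 1.86 to 58.1).

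In astrocyte-like nuclei (21, 135 and 37) the saline mouse gave 109155 UMIs, and 0 allows up to 27.5 CPM. Tap1 had no saline UMI and was at 41.7 and 42.97 CPM with IFN-γ, at least 1.52-fold and 1.56-fold higher, and Tap2 was at 45.8, 47.9 and 51.6 CPM. None of 10 was called (0.0844%), 3 with an unadjusted p below 0.05, and a rise under these limits was not detectable at this depth. Cluster 18 (31, 36 and 32 nuclei) had 7 of 7 microglial markers but a median UMI count of 0.318 times its libraries' and none of those markers among its 10 leading genes, and it was left without a name. Its microglial markers summed to 6025 CPM, beside 337 CPM for the astrocyte markers, the next highest list. Tap1 was at 0 in the saline nuclei of cluster 18 and at 72.8 and 106 CPM with IFN-γ, and Psmb9 at 23.8, 66.2 and 126 CPM. The ratio of oligodendrocyte-like nuclei to cluster 18 held 1 within its interval in both mice for Tap1 (0.814 and 0.729), Tap2 and Psmb8. For Psmb9 it was 0.772 (95% interval 0.407 to 1.65) and 0.471 (95% interval 0.284 to 0.820). For Erap1 it was 0.248 (95% interval 0.137 to 0.479) and 0.532 (95% interval 0.257 to 1.24). In cluster 18 no gene at all was called, member or other, so the fit cannot tell whether the members rose. With RLE scaling in its place, other genes were called in these nuclei, but no member. Cluster 26 (35 nuclei, all from the IFN-γ mice) had 5 of those 7 markers and a median UMI count of 0.307 times its libraries', its leading genes were Cd74, H2-Aa, H2-Ab1, H2-Eb1 and Ctss, and it was left without a name under the same rule. Its nuclei are not in the comparison of cluster 18 and, with no saline nuclei, had none of their own, and cluster 11, also without a name, entered no comparison.

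**Figure D4:**
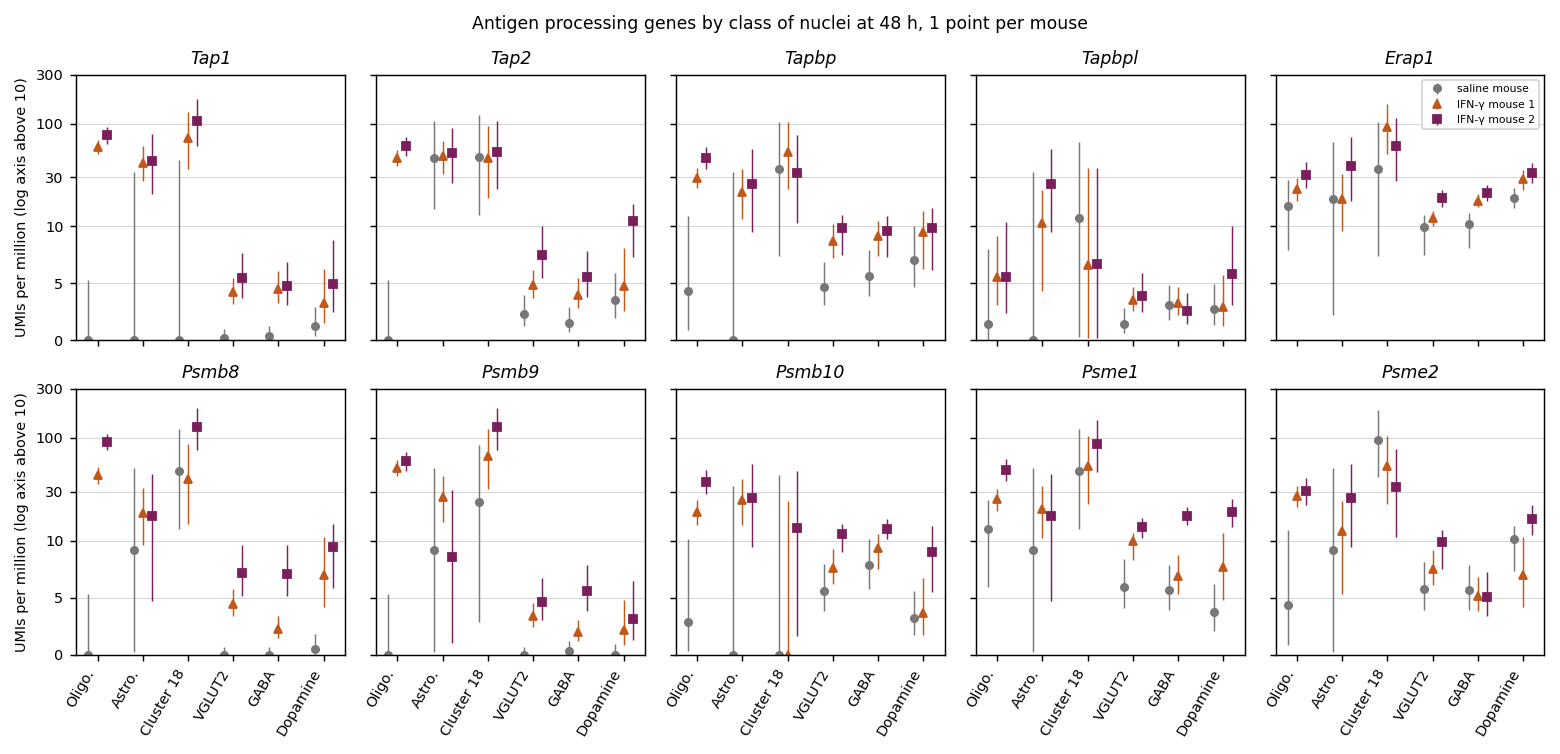
CPM (vertical axis, linear to 10 and logarithmic above) of each gene by class of nuclei (horizontal axis), with 1 point per mouse (gray saline, orange and purple IFN-γ mice 1 and 2) and exact Poisson 95% intervals that cover counting error only. In oligodendrocyte-like nuclei the saline mouse is at 0 for Tap1, Tap2, Psmb8 and Psmb9 and both IFN-γ mice are above 40 CPM.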

How the data were processed

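UMIs per gene were counted in 84 wells of sorted nuclei and in 4699 single nuclei. The authors aligned reads with STAR to GRCm38 with Gencode vM10 genes and deposited raw UMI counts, for single nuclei (10x 3' v3) with introns included and after they had removed doublets and low-quality nuclei, so no doublet caller was run. Whether the counting used strand is not given in the sources used here. The labels gave treatment and time, and a well list of the study gave the NeuN fraction by barcode. It was not derived from the counts.

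From the deposited counts, CPM was taken on each well's total. Wells were compared with edgeR 4.0.16 (R 4.3.3; filterByExpr, TMM, quasi-likelihood F test, Benjamini-Hochberg over all genes tested), with all adjusted p values of the report from this test. Calls needed a log2 fold change beyond 1 (0.5 between fractions in saline) and an adjusted p below 0.01. DESeq2 1.42.0, no low-count filter beyond 1 count, RLE scaling, other control wells, other sets of wells in the fit and the removal of single wells were alternatives. Single nuclei were clustered with Leiden (leidenalg 0.10.2; 2000 variable genes, 30 components, 15 neighbours, resolution 1, with 0.5 and 2 as alternatives), and UMIs were summed by class and mouse and tested in edgeR for genes with at least 10 UMIs. A cluster took the name of its leading marker list if that led by 0.75 in z score and at least 3 markers were each in at least 5% of its nuclei, and stayed unnamed where its median UMI count was under 1/3 of its libraries' with no marker of that list among its 10 leading genes, or where another list had more there. The limits on the lead and on detection were set after the data were seen. Intervals are exact and at 95%, and floors are 3 counts; both cover counting error only. Each test was tried on simulated counts. The genes named, the pathway list and the tests were chosen with earlier results of these data known. The genes named are the 10 members, the called genes and constitutive subunits of the pathway list, and the 5 genes most like Tap1. A result that needs an item withheld here is not reported.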

Additional observations from a re-analysis of the deposited data

Results flagged for a closer look

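Of 160 groups of 4 or 6 wells of 1 gene, 71 had a median well with at least 3 counts. In 5 of these, the gap from the highest well to the next passed Dixon's limit, where chance gives about 1 in 20. In IFN-γ NeuN- wells at 6 h the highest Erap1 well was at 334 CPM with the next at 183 CPM, and the highest Tap1 well at 286 CPM with the next at 164 CPM; both are the well with 20962 UMIs, the shallowest of all. Psmb9 had a highest well at 77.2 CPM with the next at 28.3 CPM in the same group, and at 10.0 CPM with the next at 5.99 CPM in IFN-γ NeuN+ wells at 6 h. Tap2 had a highest well at 153 CPM with the next at 96.6 CPM in IFN-γ NeuN- wells at 24 h.

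The response to IFN-γ differed between 72 and 24 h in NeuN+ wells by edgeR's test of the difference for Tapbp (-2.66, adjusted p = 0.00124), Psme1 (-2.38, adjusted p = 0.00861), Psme2 (-1.76, adjusted p = 0.00435) and Erap1 (-1.72, adjusted p = 0.00035), on the log2 scale.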

How the results depend on the processing

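Counts of called genes moved by over 1.5 times mainly with the low-count filter. In NeuN- wells at 24 h, 8 of the 10 genes were called without the filter, 7 by DESeq2, 7 in 1 fit of all 84 wells and 1 when saline wells of every time served as controls, where the filtered fit tested 0. At 6 h in NeuN- wells controls from every time gave 2, where 2 of the 10 genes in place of 6 passed the filter. In NeuN- wells 1 was called at 48 h in the fit of all wells, and 1 at 72 h without the filter and in the fit of all wells. In NeuN+ wells at 24 h it was 9 without the filter and 9 by DESeq2, at 48 h 1 without the filter, 1 by DESeq2 and 1 in the fit of all wells, and at 72 h 1 in the fit of all wells. For saline NeuN+ against NeuN- wells, 1 gene was called without the filter and 1 by DESeq2. In oligodendrocyte-like nuclei a log2 limit of 1 in place of 3 gave 7 genes in place of 4. The other 84 counts under alternatives stayed within 1.5 times, those with every marker list competing for cluster names, an alternative chosen after seeing the data, included.

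With 1 well left out in turn, the counts ranged from 3 to 6 in NeuN- wells at 6 h, where Psme1, Tap2 and Tapbp were then not tested in 4 or 5 of 10 fits, and from 0 to 2 at 24 h. They ranged from 5 to 6 and 5 to 7 in NeuN+ wells at 6 and 24 h and from 1 to 4 for the NeuN+ response at 72 h less that at 24 h, and were 0 elsewhere. No value called in the report changed sign. Among values not called, the sign changed for Tapbpl in GABA neuron-like nuclei at Leiden resolution 0.5 (log2 fold change 0.0011) and for Tap1 in the interaction at 24 h by DESeq2 (0.25). It also changed with a single well left out in the interaction at 6 h for Psme1 (-1.04 to 0.059) and Tapbp (-0.045 to 0.76) and at 72 h for Erap1 (-0.76 to 0.085). For the response at 24 h less that at 6 h it changed in NeuN- wells for Psme1 (-0.40 to 0.85), Tap1 (-1.65 to 2.35), Tap2 (-0.045 to 2.04) and Tapbp (-0.13 to 0.88) and in NeuN+ wells for Erap1 (-0.071 to 0.30) and Psme1 (-0.77 to 0.23), and at 72 h less 24 h in NeuN- wells for Tap1 (-3.81 to 0.040). The cause of these shifts was not tested. No paired analysis was possible because the labels give the wells no replicate numbers shared between groups. Depth limited the NeuN- wells, where most saline values rest on 0 to 3 counts, and the saline astrocyte-like nuclei.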
